A study of Mus musculus with 8 samples.

Results

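The circadian clock genes of mouse dorsal skin were examined in an RNA-seq experiment on alpinetin, a plant flavonoid applied to the skin. The members were the core clock genes Arntl (also called Bmal1), Clock, Per1, Per2, Per3, Cry1, Cry2, Nr1d1, Nr1d2 and Dbp, picked by gene symbol. All 10 were found among the 18770 genes of the table, and all 10 passed the filter on low values, which kept 15964 genes. Per the labels the mice were wildtype C57BL/6 animals and 7 to 8 weeks old, and the study's methods name the strain C57BL/6J, give depilation at an age of 6 to 7 weeks and state that males were used. The AP group received alpinetin dissolved in ethanol on depilated back skin and the VC group received the 65% ethanol vehicle alone, once a day until skin was taken on day 4 after depilation. The skin was sequenced in bulk after the interfollicular epidermis had been taken off, with 4 libraries in each group. The time of day at which skin was collected is not given in the sources used here.

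The mammalian clock is a feedback loop of transcription. Arntl and Clock proteins pair and switch on genes that carry an E-box, among them the Per, Cry and Nr1d genes and Dbp, and the Per and Cry proteins then block the pair while the Nr1d proteins repress Arntl. Because of this wiring Arntl peaks at about the opposite time of day from Nr1d1, Nr1d2, Dbp and the Per genes in mouse tissues, and skin, including the hair follicle, has such a clock. A shift in collection time alone would therefore tend to move Arntl and those genes in opposite directions. This need not hold at every time of day, as genes sorted to the same phase need not peak at the same hour.

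The libraries of the groups differed in depth and in make-up. Reads on the listed genes numbered 6454563 to 7264151 in VC and 8507783 to 11190113 in AP. Values below are given in the order of libraries 1 to 4 of each group. The 13 mitochondrially encoded genes took 54.3%, 44.9%, 42.1% and 52.3% of the VC reads and 11.1%, 7.85%, 5.32% and 10.3% of the AP reads. Each VC library therefore lay above each AP library, with means of 48.4% ± 5.81 and 8.66% ± 2.63 (SD, n = 4 each; two-sided exact permutation p = 0.0286, the smallest that 70 assignments allow). Outside those genes VC libraries held 3080758 to 3762217 reads and AP libraries 7561598 to 10594787, so a low gene rested on fewer reads in VC. The part of this difference in the clock gene values was not tested.

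None of the 10 clock genes passed an adjusted p of 0.05 between AP and VC in the limma test over all genes, where 10.3% of the 15964 genes tested did, 6.33% higher in AP, and the other 639 called genes lower. At an unadjusted p under 0.05 the count was 2, Arntl and Clock, against 30.3% of all genes. DESeq2 called 1 clock gene, Arntl, and 3039 of the 15964 genes in all, and edgeR and voom called 0 clock genes and 1715 and 1438 genes in all. The log2 fold change (on log2 of the normalized count plus 1) was above 0 for 8 clock genes and below 0 for 2, with a median of 0.41 beside 0.06 for all genes tested. That median was 0.20 with the trend on transcript length taken out, 0.27 with voom and sample quality weights, 0.27 without VC.1 and 1.27 with total-count scaling, which moved the median of all genes by 0.84. In bulk skin, fewer cells of a type and less RNA per cell cannot be told apart.

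The activators come first. Arntl (ENSMUSG00000055116) encodes the partner that is shared by the activating pairs of the clock. Its normalized counts were 23.6, 48.8, 43.7 and 18.8 in VC and 50.8, 72.8, 74.7 and 88.0 in AP. The groups did not overlap, though AP.1 was close to VC.2. Such separation with AP higher was seen in 10.3% of all genes tested, with AP lower in 8.91%, and in 1 of the 10 clock genes. The log2 fold change was 1.14 ± 0.37 (SE; 95% interval 0.33 to 1.96), with a limma adjusted p of 0.0683. The VC values rested on 13, 33, 32 and 10 reads and the AP values on 70, 135, 150 and 123. DESeq2 on the recovered reads gave an adjusted p of 0.0263, and over all the alternatives it ran from 0.00348 to 0.174.

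Clock (ENSMUSG00000029238), the DNA-binding partner of Arntl, had normalized counts of 258, 168, 210 and 161 in VC and 226, 317, 267 and 299 in AP. VC.1 reached into the AP range and 3 AP libraries lay above all VC libraries. The log2 fold change was 0.49 ± 0.20 (SE), with a limma adjusted p of 0.129. Clock has the longest transcript of the 10, 9744 bases. Fold changes rose with transcript length over all genes tested (Spearman's rho 0.24 across genes, which are not independent replicates, and 0.40 across the 11257 genes with a mean of at least 50), and with that trend taken out the log2 fold change of Clock was 0.07 and that of Arntl 1.07. The same step gave 0.30 for Per1, 0.83 for Per2, 0.27 for Per3, 0.44 for Cry1, 0.13 for Cry2, -0.06 for Nr1d1, -0.11 for Nr1d2 and -0.17 for Dbp.

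The Per genes encode the repressors that carry most of the daily rhythm of the negative limb. Per1 (ENSMUSG00000020893), which also answers acutely to cyclic AMP and glucocorticoid signals, had normalized counts of 256, 321, 691 and 366 in VC and 582, 811, 297 and 479 in AP. VC.3 was second only to AP.2, and AP.3 was lower than 3 of the VC libraries, so the groups overlapped widely. Per2 (ENSMUSG00000055866), whose loss disturbs the rhythm of mutant mice, had 16.4, 99.0, 180 and 163 in VC and 220, 237, 126 and 152 in AP. VC.1 stood far below the rest, on 9 reads, VC.2 was also below every AP library, and VC.3 and VC.4 lay among them. Per3 (ENSMUSG00000028957), whose loss leaves the rhythm largely intact, had 83.7, 168, 206 and 99.4 in VC and 214, 182, 202 and 161 in AP. VC.1 and VC.4 were low and VC.2 and VC.3 lay among the AP libraries. The log2 fold changes were 0.42 ± 0.34 (SE) for Per1, 1.08 ± 0.62 for Per2 and 0.53 ± 0.28 for Per3, with limma adjusted p of 0.423, 0.260 and 0.231. Without VC.1 the value was 0.23 for Per1, 0.31 for Per2 and 0.32 for Per3. Per1 was also at 0.71 without VC.3, 0.68 without AP.3 and 0.20 without AP.2.

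The Cry proteins are the strongest inhibitors of the Arntl and Clock pair. Cry1 (ENSMUSG00000020038), which peaks later than the Per genes, had normalized counts of 85.5, 114, 101 and 116 in VC and 119, 130, 115 and 190 in AP. AP.4 stood above the others and AP.3 lay just below VC.4. Cry2 (ENSMUSG00000068742), with a weak rhythm in most tissues, had 189, 211, 149 and 180 in VC and 265, 183, 201 and 193 in AP. AP.1 was the highest and the other libraries of the groups were mixed. The log2 fold changes were 0.39 ± 0.23 (SE) for Cry1 and 0.20 ± 0.19 for Cry2, with limma adjusted p of 0.277 and 0.503. Cry1 was at 0.23 without AP.4, and Cry2 at 0.11 without VC.3 and 0.09 without AP.1.

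Nr1d1 and Nr1d2 encode the REV-ERB nuclear receptors, which bind heme and repress Arntl. Nr1d1 (ENSMUSG00000020889) had normalized counts of 669, 635, 756 and 848 in VC and 804, 685, 566 and 558 in AP. AP.3 and AP.4 lay below all VC libraries while AP.1 was second to VC.4. Nr1d2 (ENSMUSG00000021775) had 473, 520, 548 and 741 in VC and 685, 476, 568 and 561 in AP, and the groups covered nearly the same range. The log2 fold changes were -0.16 ± 0.17 (SE) for Nr1d1 and 0.01 ± 0.18 for Nr1d2, with limma adjusted p of 0.542 and 0.966. With 1 library left out Nr1d1 ran from -0.27 (without AP.1) to -0.09 (without VC.4 or AP.4), and Nr1d2 from -0.08 to 0.15. Dbp (ENSMUSG00000059824), a PAR bZIP activator driven by E-boxes and widely used as a readout of the clock's output, had 669, 935, 836 and 1142 in VC and 967, 548, 586 and 673 in AP. AP.1 was the second highest of all libraries, AP.2 and AP.3 lay below all VC libraries and AP.4 was just above VC.1. Its log2 fold change was -0.38 ± 0.21 (SE; 95% interval -0.85 to 0.09), with a limma adjusted p of 0.256. With 1 library left out Dbp ran from -0.55 (without AP.1) to -0.25 (without VC.4), with limma adjusted p of 0.0922 to 0.488.

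**Figure D1:**
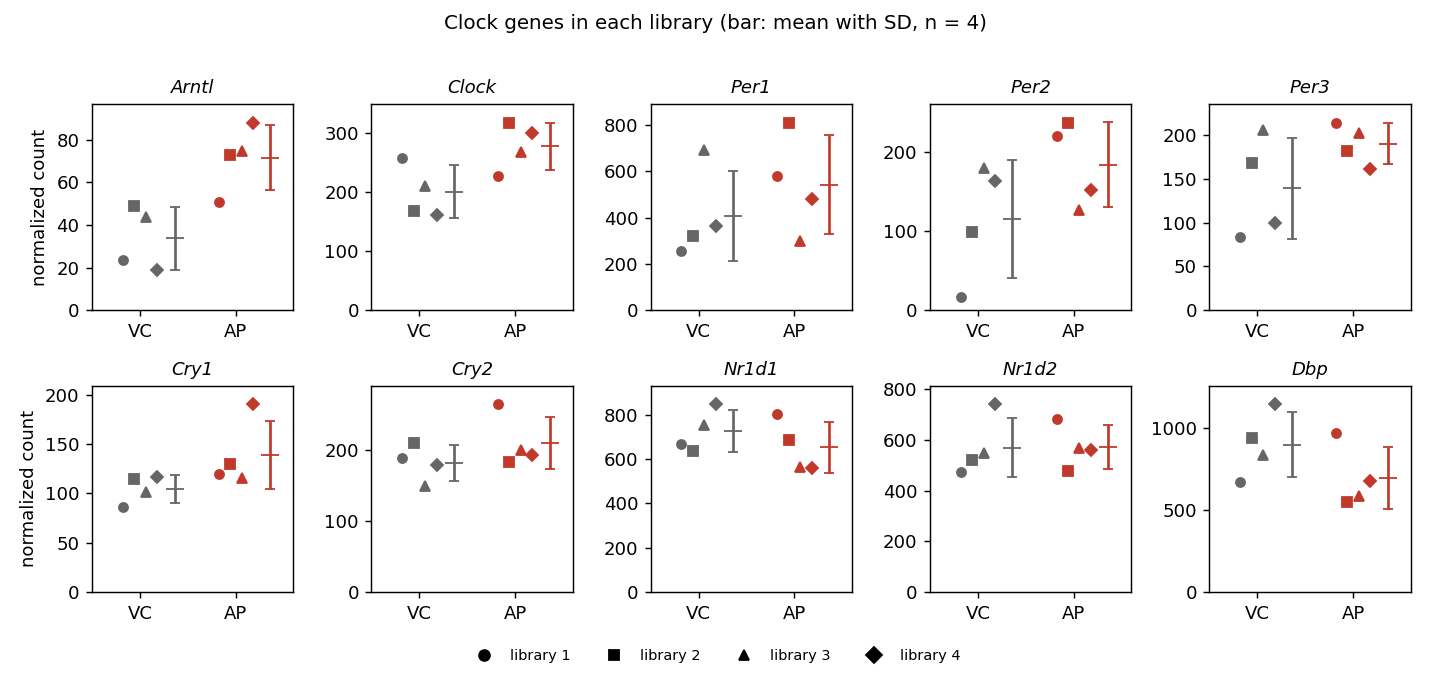
Normalized counts (y axis, linear and starting at 0) of the 10 clock genes in the 4 VC and 4 AP libraries, with the mean and SD of each group beside the points. Arntl is the gene whose AP libraries, 50.8 to 88.0, all sit above its VC libraries, 18.8 to 48.8, and the groups overlap in the other panels.

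Per kilobase of the longest annotated transcript, Dbp had the highest level in VC, 488 ± 108 normalized counts per kb (SD, n = 4), followed by Nr1d1 with 267 ± 34.9. Nr1d2 with 122 ± 25.2 and Per1 with 87.4 ± 41.4 came next, and their spreads overlapped. Cry2 with 45.9 ± 6.52 and Cry1 with 34.4 ± 4.66 followed, then Per3 with 23.2 ± 9.63, Clock with 20.5 ± 4.59 and Per2 with 19.7 ± 12.7, whose spreads overlapped. Arntl was the lowest, at 8.44 ± 3.69. In AP the ends of this order were unchanged, with Dbp at 377 ± 103 and Arntl at 17.9 ± 3.86 normalized counts per kb.

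The question of phase was taken up by sorting the members by their approximate textbook time of peak. This sorting is coarse. Of the 6 members of the E-box and D-box phase, 4 had a log2 fold change above 0 (Per1, Per2, Per3 and Nr1d2) and 2 below (Nr1d1 and Dbp), with a median of 0.22. The 3 members placed in the opposite phase, Arntl, Clock and Cry1, were all above 0, with a median of 0.49. Cry1 is itself an E-box target that peaks later than the Per genes, so its place there is approximate. None of the 9 passed the limma test, and Cry2 was assigned to neither phase. The Per genes thus had the same sign as Arntl, and Nr1d1 and Dbp the other sign. Nr1d2 was near 0 and lay below 0 with the length trend taken out (-0.11) and without VC.1 (-0.07). Without VC.1 the others of its phase were at 0.23 (Per1), 0.31 (Per2), 0.32 (Per3), -0.20 (Nr1d1) and -0.51 (Dbp). The median of 0.22 therefore leaned on VC.1. This sign pattern is a description of values that did not pass the test, and the part of collection time in it was not tested.

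Ratios within a library do not depend on how the libraries were scaled, so all 18 pairs of an E-box or D-box phase member over an opposite phase member were formed. The mean log2 ratio was lower in AP for 13 pairs and higher for 5, the differences ran from -1.55 to 0.71, and their median was -0.51. The 5 higher pairs were each a Per gene over Clock or Cry1. Every pair with Nr1d1, Nr1d2 or Dbp as numerator was lower. With the length trend taken out, a step added after seeing the data, that median was -0.24. The median log2 ratio over the 18 pairs was 1.48, 1.85, 2.14 and 2.54 in VC and 2.11, 1.53, 1.25 and 1.04 in AP. AP.1 and AP.2 lay within the VC range, and VC.1 and VC.2 within the AP range. The groups were separate in 1 of the 18 pairs, Dbp over Arntl. The share of other gene pairs that separate in this way was not computed, so the count is not read as more or less than usual. Its log2 ratio was 4.82, 4.26, 4.26 and 5.93 in VC and 4.25, 2.91, 2.97 and 2.94 in AP. AP.1 lay just under VC.2 and VC.3, and this pair was the lowest of the 18 in its difference. Nr1d1 over Arntl, with 4.82, 3.70, 4.11 and 5.50 in VC and 3.99, 3.23, 2.92 and 2.66 in AP, overlapped through AP.1. Per2 over Clock, with -3.98, -0.77, -0.22 and 0.02 in VC and -0.04, -0.42, -1.08 and -0.98 in AP, had a higher mean in AP through the low value of VC.1.

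**Figure D2:**
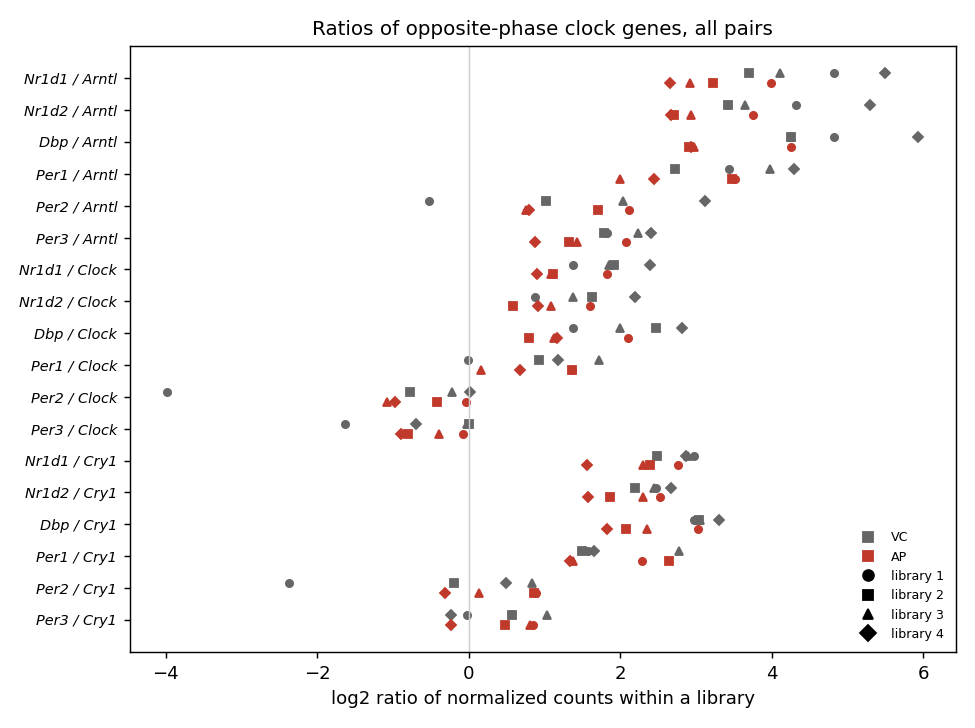
Log2 ratio within each library (x axis) of each E-box or D-box phase clock gene over each opposite phase gene (18 pairs, y axis), grey for VC and red for AP, 1 point a library. Dbp over Arntl is the pair in which the groups do not overlap, with AP.1 at 4.25 beside VC values of 4.26, and the other 17 pairs overlap.

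Of 22 further clock components, 21 were tested. In the limma test 3 passed, each higher in AP, beside 6.33% of all genes called higher, and the median log2 fold change was 0.21. Rora, a nuclear receptor that activates Arntl through the element the Nr1d proteins bind, had normalized counts of 349, 474, 285 and 298 in VC and 632, 415, 672 and 916 in AP. AP.2 lay within the VC range. Its log2 fold change was 0.88 ± 0.24 (SE), with a limma adjusted p of 0.0437. Bhlhe40, an E-box-binding repressor that also answers to many stimuli, had 262, 259, 362 and 259 in VC and 443, 485, 407 and 394 in AP. The groups did not overlap. Its log2 fold change was 0.61 ± 0.17 (SE), with a limma adjusted p of 0.0418. Gsk3b, a kinase that phosphorylates clock proteins and also acts in Wnt signaling, had 313, 325, 410 and 309 in VC and 408, 551, 572 and 559 in AP. AP.1 was just below VC.3. Its log2 fold change was 0.62 ± 0.17 (SE), with a limma adjusted p of 0.0414. These calls lay near the threshold. DESeq2 and edgeR called all 3, voom with sample quality weights called Rora and Gsk3b, and voom without weights called 0. Leaving out 1 library at a time gave 0 to 2 calls, with 0 without VC.1, VC.4, AP.3 or AP.4. With the transcript length trend taken out Rora (0.43) and Gsk3b (0.25) had adjusted p of 0.364 and 0.292, and Bhlhe40 was still called.

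Among the 5 further genes of the E-box and D-box phase, 2 had a log2 fold change above 0 and 3 below. Their median was -0.27. Limma, DESeq2, edgeR and voom called 0 of them, beside 10.3% of all genes called by limma. The count at an unadjusted p under 0.05 was 1, beside 30.3% of all genes. Ciart, a repressor of the Arntl and Clock pair, had normalized counts of 40.0, 68.0, 72.4 and 80.6 in VC and 51.5, 29.7, 33.4 and 62.2 in AP. AP.2 and AP.3 were below all VC libraries. Hlf, a relative of Dbp, had 124, 143, 92.9 and 186 in VC and 184, 163, 219 and 261 in AP, with AP.3 and AP.4 above all VC libraries. The log2 fold changes were -0.57 ± 0.35 (SE) for Ciart and 0.62 ± 0.25 for Hlf, with limma adjusted p of 0.293 and 0.119. With the length trend taken out Ciart was at -0.37 and Hlf at 0.40. Dbp and Hlf, whose proteins bind the D-box, thus had opposite signs. The opposite phase genes Npas2 and Nfil3 were not called. Nfil3 had a log2 fold change of -0.05. Npas2 rested on 0 to 22 reads a library, with 0 in VC.1, and its mean normalized counts were 10.5 ± 8.99 in VC and 8.42 ± 2.70 in AP (SD, n = 4). Its log2 fold change of 0.33 ran against these means, so no direction is read from it.

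Lists of clock outputs and of genes that answer to glucocorticoids or stress were also read. These lists share genes with those above: Usp2 and Noct are both outputs and further clock components, Tsc22d3 and Klf9 are both outputs and glucocorticoid-responsive, and the glucocorticoid list holds Per1 itself. Of the 7 clock outputs 0 passed the limma test, 0 passed DESeq2, edgeR or voom and 3 had an unadjusted p under 0.05, beside 30.3% of all genes, with a median log2 fold change of 0.06. Klf9, a transcription factor, had normalized counts of 273, 265, 318 and 454 in VC and 603, 600, 375 and 429 in AP, with a limma adjusted p of 0.0896. AP.1 and AP.2 lay above every VC library. Wee1, a cell cycle kinase under E-box control, had normalized counts of 151, 232, 240 and 221 in VC and 302, 279, 254 and 300 in AP. The groups did not overlap, and the limma adjusted p was 0.138. Of the 12 glucocorticoid-responsive genes limma called 1, Dusp1, beside 10.3% of all genes, and DESeq2 called 2, with a list median of 0.37. Dusp1 is also on the list of immediate early genes. Tsc22d3, a classic glucocorticoid target, had 2374, 1896, 2542 and 2505 in VC and 2707, 2480, 922 and 1550 in AP, with AP.3 and AP.4 below all VC libraries. Its log2 fold change was -0.39, with a limma adjusted p of 0.395. On this list 8 of the 12 genes lay above 0 and 4 below, so Tsc22d3 does not stand for the list. Of the 6 heat shock genes 0 were called by limma, DESeq2, edgeR or voom and 0 had an unadjusted p under 0.05, with a median of 0.09.

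The immediate early genes, which respond within minutes to stimulation, were followed as well. Of 12, 11 rose in AP by limma, where DESeq2 and edgeR called 11 and voom 10, beside 6.33% of all genes called higher by limma, with a list median of 1.38. Fos had normalized counts of 287, 269, 468 and 317 in VC and 2384, 1615, 2090 and 1728 in AP, a log2 fold change of 2.56 ± 0.20 (SE) with a limma adjusted p of 6.34e-04. All AP libraries were well above VC. Per1, which shares inducers with these genes, did not pass the test. Its normalized counts in AP were 582, 811, 297 and 479, beside 2384, 1615, 2090 and 1728 for Fos. The part of the immediate early genes' inducers in the clock gene values was not tested.

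Markers of cell types moved with the groups as well. Of 8 suprabasal keratinocyte markers 7 rose in AP by limma, where edgeR and voom called 7 and DESeq2 8, beside 6.33% of all genes called higher by limma, although the interfollicular epidermis had been taken off, and their summed normalized counts were 4679, 11442, 7453 and 5010 in VC and 35080, 36730, 95293 and 145240 in AP. The most abundant of them, Krt10, had 1302, 4085, 2280 and 1838 in VC and 15852, 17528, 47444 and 73321 in AP. Each AP library exceeded each VC library in this sum. Of 5 basal keratinocyte markers 3 rose by limma (Itga6, Col17a1 and Itgb4), and edgeR called 2, beside the same share, and the sums, led by Krt14, were 23048, 76900, 45841 and 21375 in VC and 47897, 51509, 92112 and 136014 in AP. VC.1 and VC.4 had the lowest sums on both lists and the fewest Arntl reads, and they also had the largest mitochondrial shares, 54.3% and 52.3%, and the fewest reads outside mitochondrial genes, 3318511 and 3080758. None of these markers was at 0 in any library.

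Of the 6 skeletal muscle markers, led by Acta1, 0 were called by limma, DESeq2, edgeR or voom and 5 had an unadjusted p under 0.05, beside 30.3% of all genes. All 6 had a log2 fold change below 0, with a median of -1.80. That of Myh4 (-0.77) ran against its mean normalized counts, 2504 in VC and 2813 in AP, where AP.1 held 9027. No direction is read from Myh4. The sums of the 6 were 40696, 60469, 30687 and 32130 in VC and 52950, 7769, 4581 and 10286 in AP. AP.1 held as much muscle RNA as VC, and the other 3 AP libraries lay below every VC library. AP.1 was also the AP library whose Dbp over Arntl ratio lay at the VC values. It had the fewest reads of the AP group, 8507783, and the largest mitochondrial share of that group, 11.1%, as well. These traits cannot be told apart in 1 library. For the 6 fibroblast markers, led by Col1a1, the sums were 113491, 76169, 78165 and 214350 in VC and 248493, 185673, 133545 and 94665 in AP. Limma called 0 of these 6, 0 of 6 hair follicle markers, 0 of 6 adipocyte markers and 0 of 5 leukocyte markers, with 1, 0, 1 and 3 at an unadjusted p under 0.05. DESeq2 called 1 leukocyte marker and none of the other 3 lists, and edgeR and voom called 0. The sums for hair follicle, led by Krt17, were 15331, 19363, 17029 and 10974 in VC and 19077, 14460, 26171 and 22923 in AP. Those for leukocytes, led by Cd74, were 17623, 10304, 7287 and 26192 in VC and 12694, 8330, 7741 and 7797 in AP. Both lists overlapped between the groups. The adipocyte sums, led by Cfd, were 38784, 13188, 13405 and 23948 in VC and 25776, 36423, 18111 and 14183 in AP. Of 4 red blood cell markers limma called 1, Hbb-bs (log2 fold change 1.24), beside 10.3% of all genes. DESeq2 called 2 and edgeR and voom 1 each. The list went both ways, with 3 markers above 0 and 1, Hba-a2 (-0.81), below. The sums were 780.4, 492.1, 898.5 and 538.1 in VC and 1066, 1519, 671.1 and 747.4 in AP. The part of cell make-up in the clock gene values was not tested.

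Promoter sequence was read for the members from RefSeq (GRCm38.p6), as the 250 bases before the most upstream start that its table lists for each gene, and 9 of the 10 members matched, with Per2 missing. The letters searched on both strands were the E-box CACGTG, held by 6.02% of 32851 promoter windows of that length, the D-box TTATGTAA (TTACATAA on the other strand), held by 0.819%, and the cyclic AMP response element TGACGTCA, held by 1.55%. Among the 9 members an E-box was found for Per1 and Cry1, a D-box for Per3 and a cyclic AMP response element for none. The half-sites AGGTCA and GGGTCA, held by 23.8% of windows on either strand, were found for Per1 and Nr1d2. The windows with an E-box or D-box are shown because these are elements through which clock proteins act, with the matched letters in capitals. They lie at chr11:69098699-69098948 (plus strand) for Per1, chr4:151044666-151044915 (minus strand) for Per3 and chr10:85185055-85185304 (minus strand) for Cry1. The Per1 window lies inside the span that GENCODE M21 gives the gene, chr11:69095217-69109960, before an internal start and not before the first one.
Per1: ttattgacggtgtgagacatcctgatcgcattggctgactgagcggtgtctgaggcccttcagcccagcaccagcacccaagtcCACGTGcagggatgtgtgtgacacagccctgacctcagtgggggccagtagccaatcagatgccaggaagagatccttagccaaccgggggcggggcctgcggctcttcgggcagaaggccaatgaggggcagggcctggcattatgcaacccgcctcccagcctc
Per3: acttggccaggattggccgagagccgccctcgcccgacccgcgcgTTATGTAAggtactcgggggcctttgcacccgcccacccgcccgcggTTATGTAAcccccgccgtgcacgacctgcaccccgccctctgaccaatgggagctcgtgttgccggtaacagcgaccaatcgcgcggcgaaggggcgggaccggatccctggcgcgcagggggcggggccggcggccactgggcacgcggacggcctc
Cry1: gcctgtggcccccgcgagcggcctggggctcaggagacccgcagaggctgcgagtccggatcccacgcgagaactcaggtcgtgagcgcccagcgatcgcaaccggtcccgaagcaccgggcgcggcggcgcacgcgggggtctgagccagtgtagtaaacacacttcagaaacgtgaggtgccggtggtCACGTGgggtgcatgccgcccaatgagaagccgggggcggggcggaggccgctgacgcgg
The E-box began 166 bases before the start in Per1 and 60 bases before it in Cry1, and the D-boxes of Per3 began 205 and 158 bases before it. Per1 and Cry1, which share the E-box in this window, had log2 fold changes of 0.42 and 0.39, and Per3 had 0.53, none past the limma test. Among 17 further clock components with a window, Ciart held 3 E-boxes and Tef and Bhlhe41 1 each. A match describes the letters in the window and does not show that a factor binds there.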

How the data were processed

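RNA-seq was done on dorsal skin of 4 AP and 4 VC mice. Per the labels, the authors used STAR, HTSeq, DESeq2 and mm10 (the study's methods name featureCounts in place of HTSeq; versions are not given in the sources used here), and deposited normalized counts, a signal per gene and library equal to reads divided by a size factor. All 150160 values gave whole reads within 0.01 read. Columns carry a group name but could not be tied to single mice. The authors' fold changes, errors, statistics, p-values and baseMean were not used.

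A gene was tested when 4 or more of the 8 libraries had a value of 3 or more, with limma 3.58.1 (R 4.3.3; intensity trend, log2 of value plus 1, Benjamini-Hochberg over all genes). DESeq2 1.42.0, edgeR 4.0.16 and voom were run on the recovered reads, and scalings, filters, pseudocounts, thresholds, depth and replicates were varied. The steps were tested on simulated data. Transcript lengths came from GENCODE M21. One normalized count was worth between 0.533 and 2.01 reads. Replicates differed by more than sampling noise (chi-square per degree of freedom 14.7 to 74.2).

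Every clock gene is named. Of each other list, called genes come first and then those with the largest test statistic, or genes picked after their values were seen (Ciart, Tsc22d3, Hlf, Wee1). The members and lists were chosen with earlier results of these data known. The plan named no pairs for the ratios: single ratios, Dbp over Arntl among them, had been looked at before all 18 pairs were adopted.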

Additional observations from a re-analysis of the deposited data

Results flagged for a closer look

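In 104 groups of 4 libraries (the clock genes, the further clock components, the 18 ratios, their median and the mitochondrial share), 6 held a library far from the other 3, and chance does this in about 1 of 20 groups. The ratios share genes, so these groups are not independent. Bhlhe40 had 362 normalized counts in VC.3 against 259 to 262 in the other VC libraries. Gsk3b had 410 in VC.3 against 309 to 325, and 408 in AP.1 against 551 to 572. Csnk1e, a kinase that phosphorylates Per proteins, had 233 in VC.4 against 422 to 444. The log2 ratio of Dbp to Arntl was 4.25 in AP.1 against 2.91 to 2.97 in the other AP libraries. The log2 ratio of Per1 to Cry1 was 2.77 in VC.3 against 1.49 to 1.65.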

How the results depend on the processing

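The count of clock genes called was 0 with limma and was 1 with DESeq2, 1 at an adjusted p under 0.1 and 9 with total-count scaling, and 0 under the other alternatives and with any 1 library left out (0 to 0). Total-count scaling moved the median of all genes by 0.84 and its split of calls to 8670 higher and 65 lower (main 1011 and 639, upper-quartile 890 and 892). Relative to that median Arntl was at 1.09, Nr1d1 at -0.19 and Dbp at -0.41. The count of further clock components was 3, and was 3 with DESeq2 and with edgeR, 2 with voom and sample quality weights, 0 with voom, 0 without the intensity trend, 1 with upper-quartile factors, 14 with total counts, 1 with total counts without mitochondrial genes, 1 with the length trend taken out, 1 at equal depth and 0 to 2 with 1 library left out. Signs turned with total counts for Nr1d1 (0.71), Dbp (0.49), Ciart (0.28) and Bhlhe41 (0.44). Nr1d2, near 0, turned with edgeR (0.00), upper-quartile factors (-0.05), the length trend taken out (-0.11) and equal depth (0.00), and ran from -0.08 to 0.15 with 1 library left out. The cause was not tested. The median difference over the 18 ratios was -0.51, -0.51 and -0.50 with pseudocounts of 0.5 and 5, and -0.70 to -0.38 with 1 library left out, and -0.24 with the length trend taken out, the last 2 steps being added after seeing the data. The mitochondrial share differed by -41.9 to -37.8 percentage points with 1 library left out. Depth limits Arntl, on 10 to 33 reads in VC, and Per2, on 9 reads in VC.1.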
